A study of Mus musculus with 6 samples.

Results

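The genes described here are those of the guidance families, which steer growing axons and growing vessels, as read in endothelial cells of the mouse lung. Members were all genes of the deposited table whose symbol begins as the symbols of these families do, whatever their values, which gave 65 of 23345 genes. They were 19 semaphorins, 8 plexins, 6 ephrins, 14 Eph receptors, 3 Slits, 4 Robos, 3 netrins and 4 Unc5 receptors. The same letters also caught 4 genes of other kinds, the antisense RNAs Plxna4os1 and Plxna4os2 and the genes Unc50 and Unc5cl, which belong to none of these families and are counted as matched by name only.

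Lung endothelial cells came from C57BL/6JOlaHsd mice kept for 12 weeks on a high-fat diet (HFD, mice 2, 4 and 5) or on a normal diet (ND, mice 1, 3 and 4), with 1 library of 500 cells per mouse and no other treatment or allele named. The cells had been held on culture plates, depleted of cells bearing CD16/CD32 and enriched by bead selection for ICAM-2, a surface protein of endothelium. The number 4 names a different mouse in each diet, so no mice were paired. Values per library are given below in the order HFD 2, HFD 4 and HFD 5, then ND 1, ND 3 and ND 4.

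Semaphorins are ligands, some secreted and some held in the membrane, whose receptors are the plexins, and the secreted class 3 semaphorins mostly need neuropilins as well. Ephrins sit on the cell surface and bind Eph receptors, which are tyrosine kinases, on the neighbouring cell. Slits bind Robo receptors, and netrins bind DCC and Unc5 receptors. In blood vessels ephrin-B2 (Efnb2) is known as a marker of arterial and EphB4 (Ephb4) as a marker of venous endothelium, and Sema3g and Unc5b are also known from arteries.

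Values are normalized counts, meaning reads per gene scaled by the authors with 1 size factor for each library. The reads behind them came to 18.8, 22.2 and 27.9 M in the HFD libraries and to 17.2, 14.5 and 13.8 M in the ND libraries, so each HFD library was deeper than each ND library. All 10 endothelial markers examined had reads in every library, and their summed level was 160218 to 189823 normalized counts in HFD libraries and 124438 to 158107 in ND libraries. Each HFD sum thus lay above each ND sum. Pecam1, Tek, Egfl7 and Icam2 were higher in every HFD library, where 8.12% of all genes tested were. Kdr was lower in every HFD library, where 5.93% were. When libraries were scaled to equal totals, only Tek and Egfl7 of these still lay apart. The library ND 3 stood apart, with 103698 normalized counts over 12 markers of lung epithelium, against 4809 to 18668 in HFD libraries and 4393 and 7803 in ND 1 and ND 4. ND 3 also had 6445 normalized counts over 5 markers of white blood cells, nearly all from Lyz2, against 144 to 220 in HFD libraries and 217 and 188 in ND 1 and ND 4. Of the other markers in that list, Ptprc had 17.1 in ND 3 against 11.8 to 14.5 elsewhere. Cd68 had 15.0 in ND 3 against 164 and 127 in ND 1 and ND 4. The log2 fold changes printed below for genes whose diets did not overlap are therefore also given without ND 3, unless they rest on a few reads. In bulk libraries such as these, fewer cells of a type and less RNA per cell cannot be told apart.

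No guidance gene passed an adjusted p of 0.05 between the diets by limma, edgeR or DESeq2. The members whose levels lay apart were mostly ligands that were lower in HFD, namely Sema5a, Sema6a, Sema6d, Ntn4 and Efnb2. Of the 65 members, 52 averaged 10 normalized counts or more over the libraries and were tested with all 15655 such genes by limma on log2(normalized count + 1). Among these 52, 20 had a positive and 32 a negative log2 fold change, HFD minus ND, with a median of −0.12 against 0.05 over all genes tested. By limma 0 of the 52 passed the adjusted threshold, where 0% of all genes did, and the smallest adjusted p of a member was 0.561. At an unadjusted p under 0.05, limma had 0 members higher in HFD, where 5.56% of all genes were, and 3 lower, where 2.36% were. Every HFD library lay above every ND library for 2 members, where 8.12% of all genes did so, and below every ND library for 5, where 5.93% did so. Counts this small were not tested against the shares of all genes and do not set the guidance genes apart. Without HFD 2 the count at an unadjusted p under 0.05 was 0 and without ND 1 it was 1, where 7.2% and 9.27% of all genes passed. Leaving out 1 library by itself makes overlap rarer. The diets did not overlap for 11 of 51 members without HFD 5, 14 of 52 without ND 1 and 14 of 51 without ND 3, where 21%, 27.4% and 25.7% of all genes did not overlap.

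On the whole reads, edgeR called 0 members at an adjusted p under 0.05, where it called 0% of all genes, and DESeq2 also called 0, where it called 1.95% of the 13947 genes with an adjusted p. At an unadjusted p under 0.05, edgeR had Robo3, Ntn4, Sema6a and Sema6d, where it had 9.34% of all genes, and DESeq2 had these and Sema5a, where it had 10.4%. The 13 members under the filter had means of at most 8.37 normalized counts, and 8 members had 0 reads in at least 1 library. A further 5 members had one diet's mean under 10 normalized counts and passed through the other diet, Robo3, Sema4d and Epha3 with ND means of 1.54, 3.04 and 7.19 normalized counts and Epha10 and Sema4b with HFD means of 8.36 and 8.64, so the filter had a part in their difference.

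**Figure D1:**
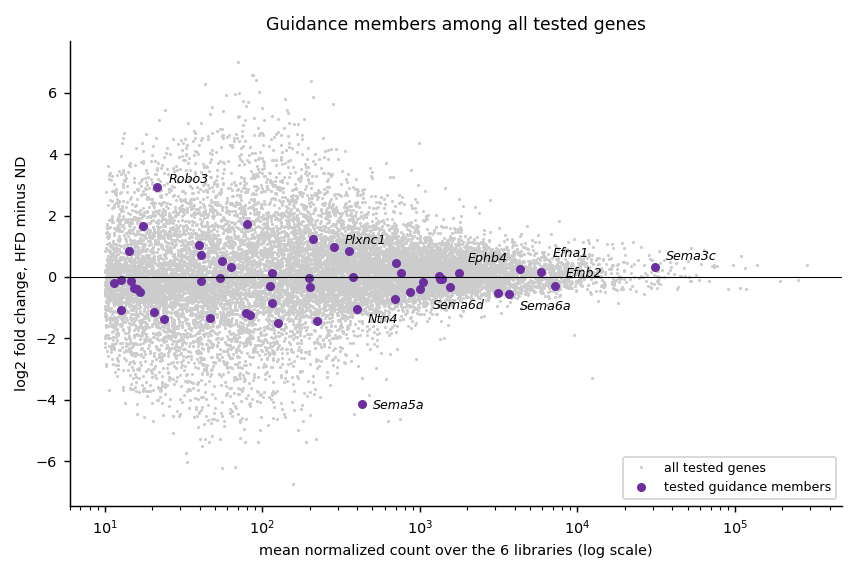
Each grey dot is 1 of the 15655 genes tested and each purple dot 1 of the 52 tested members, with the mean normalized count over the 6 libraries on a log scale (x axis) and the log2 fold change, HFD minus ND (y axis). The members lie within the cloud of all genes, with Sema5a at −4.12 near its lower edge and the most abundant members close to 0.

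How well a difference could be seen depended on the level. Among the 17 members averaging 500 normalized counts or more, log2 fold changes had a median standard error of 0.36, and the highest library exceeded the lowest by a median of 2.36-fold. Among the other 35 tested members the median standard error was 1.17 and the highest library exceeded the lowest by a median of 11.9-fold and by up to 200.4-fold. The log2 fold change of 27 tested members kept its sign when any 1 library was left out, and that of 25 did not.

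Per kb of exonic length, 2 ligands stood above all other guidance genes. The length is that of all annotated exons of a gene together, 1.83 kb for Efna1 and 6.855 kb for Efnb2. In normalized counts not divided by length, Efnb2 lay above Efna1, at means of 7218 and 5901. Sema3c, a secreted semaphorin that acts through neuropilins and plexins, averaged 4749 ± 805 normalized counts per kb in HFD and 4007 ± 1488 in ND (SD, n = 3 each). Efna1, the ephrin-A1 ligand of EphA2, averaged 3410 ± 972 in HFD and 3039 ± 832 in ND on the same scale (SD, n = 3 each). Their ranges over libraries overlapped, and Efnb2 came next with 942 ± 27.3 in HFD and 1164 ± 170.1 in ND (SD, n = 3 each). Over the 6 libraries Sema6a followed with a mean of 421 normalized counts per kb, Ephb4 with 380.4, Sema3g with 303, Sema6d with 295, Robo4 with 292 and Sema3f with 258. Unc50, a gene of intracellular membranes matched by name only, had a mean of 2753 per kb. Each family was led by 1 or a few genes, with Sema3c holding 58.2% to 81.2% of the semaphorin level per kb in a library and Robo4 95.6% to 99.4% of the Robo level.

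**Figure D2:**
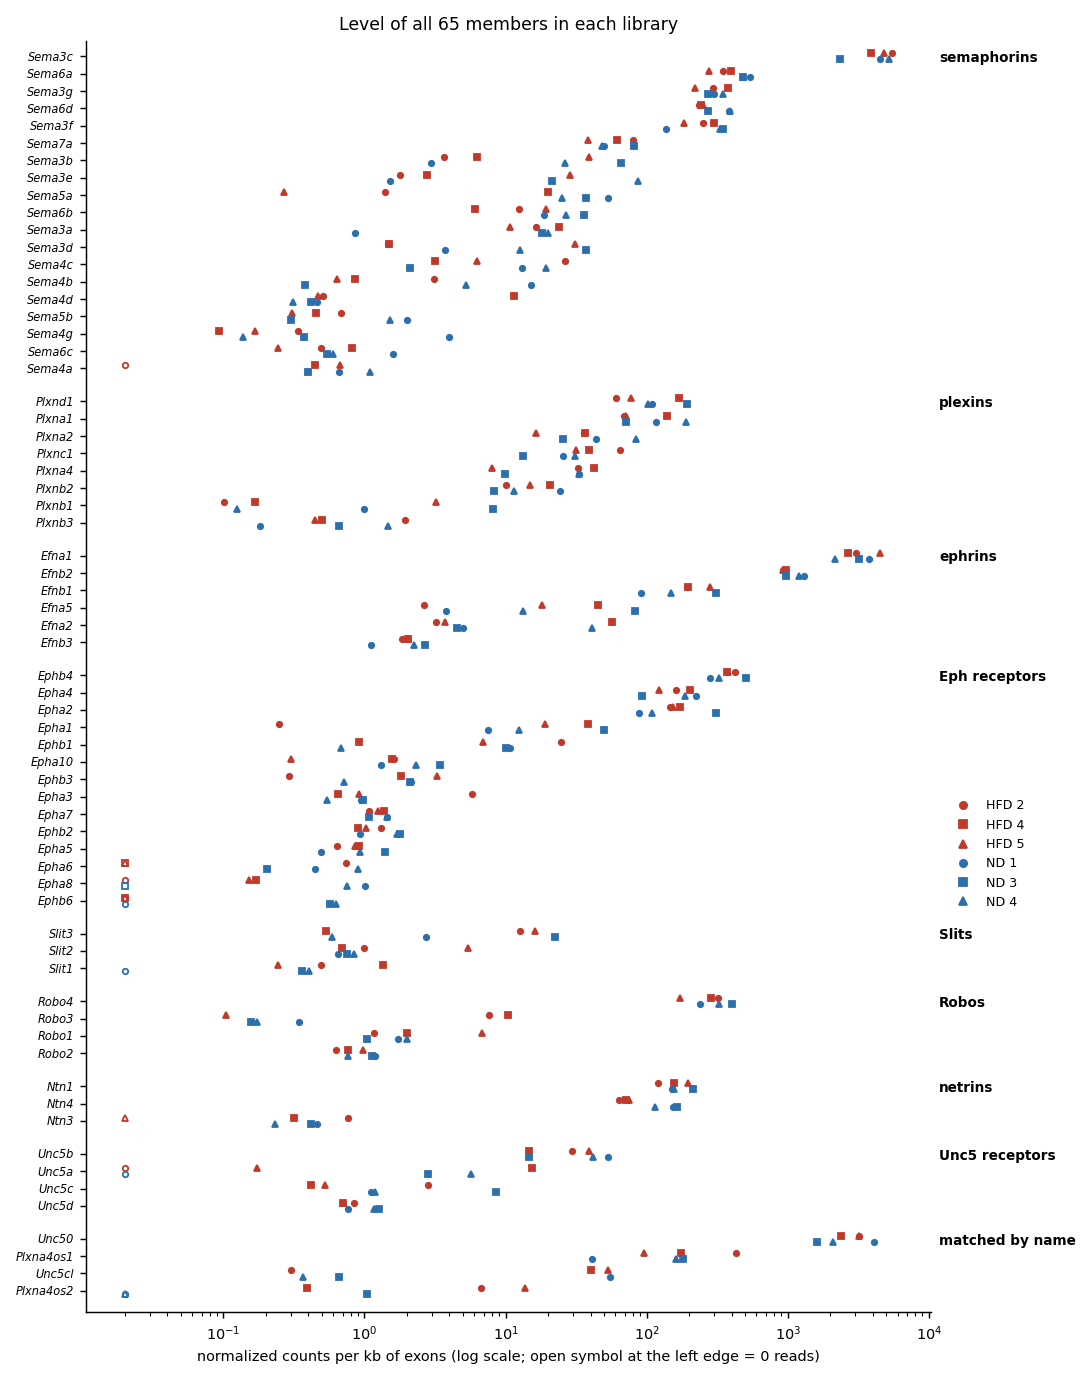
Normalized counts per kb of exonic length (x axis, log scale) for all 65 members by family, with 1 point per library, HFD above ND for each gene and open symbols at the left edge for 0 reads. Sema3c and Efna1 lie highest, at means of 4378 and 3224 per kb, and the points of a gene spread more widely as its level falls.

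Among the secreted semaphorins, the 3 most abundant showed no separation by diet. Sema3c had 39417, 27948 and 34354 normalized counts in HFD libraries, against 31989, 16701 and 37131 in ND libraries. Its log2 fold change was 0.31 ± 0.30 (SE), with a 95% interval of −0.41 to 1.03, and −0.04 without ND 3, whose value was the lowest. Sema3g, known from arterial endothelium, had 1349, 1717 and 1004 in HFD libraries, against 1366, 1243 and 1569 in ND libraries. The diets overlapped fully, at a log2 fold change of −0.07 ± 0.31 (SE; 95% interval −0.80 to 0.67). Sema3f, which acts through neuropilin 2, had between 963 and 1566 normalized counts in HFD libraries and between 716 and 1799 in ND libraries.

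A group of 3 low class 3 semaphorins shared the libraries in which they were high, and these were of both diets. Sema3b had 17.5, 29.8 and 186 normalized counts in HFD libraries, against 14.2, 316 and 126 in ND libraries. Sema3d had 12.6, 12.9 and 269 in HFD libraries, against 31.9, 321 and 109 in ND libraries. Sema3e, a ligand that binds Plxnd1 directly, had 16.5, 25.8 and 266 in HFD libraries, against 14.2, 199 and 803 in ND libraries. All 3 were highest in HFD 5, ND 3 and ND 4, the libraries that also had the highest epithelial marker sums, at 18668, 103698 and 7803 normalized counts against 4393 to 6274 in the other libraries. In HFD 5 and ND 4 most of that sum came from Ager, at 16933 and 5253 normalized counts. Sftpc, another epithelial marker, had 447 and 798 in these 2 libraries, less than 1195 in HFD 4 and 959 in ND 1. The part of epithelial RNA in these values was not tested. Sema3a did not share the pattern, with 228, 333 and 149.8 normalized counts in HFD libraries and 11.8, 251 and 276 in ND libraries. Sema3a, Sema3c, Sema3d and Sema3e lie on chromosome 5 of GRCm38, between base 12383385, where Sema3d starts, and base 17730268, where Sema3c ends. These genes were singled out after their values were seen.

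Sema5a, Sema6a and Sema6d, the semaphorins lower in every HFD library, are held in the membrane. The gene Sema5a spans chr15:32244810-32696341 and Sema6d chr2:124089969-124667770, both protein coding, on the plus strand of GRCm38 and free of exonic overlap with other genes in GENCODE M21. Sema5a, a semaphorin with thrombospondin repeats, had 26.2, 373 and 5.04 normalized counts in HFD libraries, against 997, 691 and 468 in ND libraries. Each HFD library lay below each ND library, yet the HFD values spread over more than a 10-fold range and HFD 4 came close to ND 4. The log2 fold change was −4.12 ± 1.40 (SE), with a 95% interval of −7.41 to −0.83 and a limma p of 0.0208 before and 0.561 after adjustment. On the linear scale the difference was smaller, with means of 135 normalized counts in HFD and 718 in ND, or 5.33-fold lower in HFD. On the whole reads the log2 fold change was −2.41 by edgeR, at an unadjusted p of 0.114, and −2.45 by DESeq2, at an unadjusted p of 0.0233. By limma it was −2.77 without HFD 5 and −5.74 without HFD 4, the library with the highest HFD value, and −4.12 without ND 3. The unadjusted limma p exceeded 0.05 without HFD 2, HFD 5 or ND 1, at 0.0585, 0.0502 and 0.0629.

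Sema6a, a transmembrane ligand of plexins A2 and A4, had 3068, 3503 and 2430.2 normalized counts in HFD libraries, against 4704, 4249 and 4204 in ND libraries. Each HFD library was again lower, and the 2 sets of values were tight, at 3001 ± 539.6 in HFD and 4386 ± 277 in ND (SD, n = 3 each). The log2 fold change was −0.56 ± 0.23 (SE; 95% interval −1.10 to −0.02), with a limma p of 0.0432 before and 0.607 after adjustment, and −0.58 without ND 3. The unadjusted limma p exceeded 0.05 when any 1 library but HFD 4 was left out. Sema6d, a transmembrane ligand of plexin A1, had 2462, 2549.6 and 2642 in HFD libraries, against 4057, 2869 and 4094 in ND libraries. Its HFD libraries lay close together below all ND libraries, of which ND 3 was the lowest. The log2 fold change was −0.51 ± 0.24 (SE; 95% interval −1.07 to 0.06), with a limma p of 0.0718 before and 0.649 after adjustment, and −0.68 at an unadjusted limma p of 0.0249 without ND 3. Sema5a, Sema6a and Sema6d were lower in each HFD library under all 3 scalings tried, the authors' size factors, TMM factors and equal totals.

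The other members of classes 4 to 7 were low. Sema4d, the ligand of plexin B1, had 3.88, 88.6 and 3.60 normalized counts in HFD libraries, against 3.54, 3.21 and 2.38 in ND libraries. The diets did not overlap, but the gap rests on HFD 4, the other 5 libraries had at most 5 reads each, and the diets overlapped under equal totals. Under equal totals 0 members were thus higher in every HFD library and 5 lower, where 6.47% and 7.65% of all genes were. Sema7a, a lipid-anchored ligand of plexin C1, had between 127 and 262 normalized counts in HFD libraries and between 159 and 269 in ND libraries. Of the 15 tested semaphorins, 12 had a negative log2 fold change, with a family median of −0.51, and 12 did so under TMM factors and under equal totals too. The count of negative values was 8 without HFD 5, 10 without ND 3 and 9 of 15 without ND 4, where the median was −0.15.

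Promoter sequence is shown for the members lower in each HFD library that have an entry among the RefSeq promoters, and for Ephb4, the venous partner of Efnb2. Entries existed for 54 of the 65 members. Each window is the 250 bases before the RefSeq start of transcription on the gene's own strand of GRCm38.p6, written 5′ to 3′. Capitals mark 2 motifs on either strand, the GC box GGGCGG or CCGCCC and the core bound by the Notch effector RBPJ, TGGGAA or TTCCCA, and sites of the GC box may overlap. The windows lie at chr15:32244563-32244812 (plus strand) for Sema5a, chr2:124089719-124089968 (plus) for Sema6d, chr8:8661243-8661492 (minus) for Efnb2 and chr5:137349859-137350108 (plus) for Ephb4.
Sema5a: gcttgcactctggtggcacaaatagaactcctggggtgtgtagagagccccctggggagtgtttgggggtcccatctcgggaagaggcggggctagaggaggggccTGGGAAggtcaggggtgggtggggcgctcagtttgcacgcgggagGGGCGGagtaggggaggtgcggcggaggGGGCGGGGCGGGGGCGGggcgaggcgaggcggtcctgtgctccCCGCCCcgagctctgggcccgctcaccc
Sema6d: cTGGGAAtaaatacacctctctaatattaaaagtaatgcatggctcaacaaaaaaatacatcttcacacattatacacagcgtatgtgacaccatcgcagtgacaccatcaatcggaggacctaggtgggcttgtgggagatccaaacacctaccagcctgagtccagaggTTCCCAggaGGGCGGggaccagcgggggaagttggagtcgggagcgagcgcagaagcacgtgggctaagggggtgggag
Efnb2: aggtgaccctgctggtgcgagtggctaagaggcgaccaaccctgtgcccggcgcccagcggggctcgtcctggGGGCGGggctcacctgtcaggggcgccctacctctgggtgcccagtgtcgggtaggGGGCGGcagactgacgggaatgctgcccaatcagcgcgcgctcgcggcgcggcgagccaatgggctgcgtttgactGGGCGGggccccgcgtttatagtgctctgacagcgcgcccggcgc
Ephb4: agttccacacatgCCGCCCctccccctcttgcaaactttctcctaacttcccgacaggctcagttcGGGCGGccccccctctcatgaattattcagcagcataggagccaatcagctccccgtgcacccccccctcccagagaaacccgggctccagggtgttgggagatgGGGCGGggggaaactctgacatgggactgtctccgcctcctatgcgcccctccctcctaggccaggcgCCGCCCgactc
The Sema5a window holds 5 GC boxes and 1 RBPJ core, and the Sema6d window 1 GC box and 2 RBPJ cores. The Efnb2 window holds 3 and the Ephb4 window 4 GC boxes, and neither holds an RBPJ core. Over 32851 promoter windows of the same length, 32.7% hold a GC box and 21.6% an RBPJ core. The SOX core AACAAT or ATTGTT and the ETS core CCGGAA or TTCCGG, held by 9.4% and 12.0% of windows, do not occur in these 4. The share of G and C is 72.0% in the Sema5a and Efnb2 windows, 64.0% in Ephb4 and 52.4% in Sema6d, against a median of 52.4% over all windows. The match of letters says nothing of binding in these cells.

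Plexins, the receptors of the semaphorins, were led by Plxnd1 and Plxna1 per kb, at means of 119 and 109.8 normalized counts per kb. Plxnd1, the endothelial receptor of Sema3e, had 441, 1235 and 569 normalized counts in HFD libraries, against 796, 1415 and 748 in ND libraries. Plxna1 had 629, 1265 and 646 in HFD libraries, against 1053, 648 and 1725 in ND libraries. The diets overlapped for both, at log2 fold changes of −0.48 ± 0.50 and −0.40 ± 0.48 (SE). An antisense gene covers 10.7% of the exonic bases of Plxna1, and since it is not known whether counting used strand, reads of the 2 genes cannot be told apart. Plxnc1, the receptor of Sema7a, had 537, 324 and 264 in HFD libraries, against 214, 110.1 and 258 in ND libraries. It was the only member averaging 50 normalized counts or more that was higher in every HFD library, by a narrow gap between HFD 5 and ND 4 that closed under equal totals. Its log2 fold change was 0.97 ± 0.54 (SE; 95% interval −0.31 to 2.25), with a limma p of 0.117 before and 0.688 after adjustment, and 0.61 without ND 3. Of the 7 tested plexins, 3 had a positive and 4 a negative log2 fold change, and under equal totals 2 and 5.

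Of the ephrins, Efna1 and Efnb2 were abundant in all libraries. Efna1 had 5541, 4917 and 8263 normalized counts in HFD libraries, against 6943, 5811 and 3928 in ND libraries. Its diets overlapped, at a log2 fold change of 0.17 ± 0.30 (SE), which was −0.05 without HFD 5 and −0.06 without ND 4. Efnb2 had 6320.3, 6671 and 6383 in HFD libraries, against 9006, 6711 and 8214 in ND libraries. Each HFD library was below each ND library, but HFD 4 and ND 3 were nearly equal, and under TMM factors the diets overlapped. The log2 fold change was −0.29 ± 0.19 (SE; 95% interval −0.73 to 0.15), with a limma p of 0.158, which was 0.0354 under equal totals. Without ND 3 it was −0.41. Efnb1, another membrane-spanning ephrin, had between 669 and 976 normalized counts in HFD libraries and between 313 and 1075 in ND libraries.

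Of the Eph receptors, Ephb4, Epha4 and Epha2 held most of the level per kb. Ephb4 had 1976, 1712 and 1750.5 normalized counts in HFD libraries, against 1311, 2338 and 1504 in ND libraries. The HFD libraries lay within the range of the ND libraries, at a log2 fold change of 0.12 ± 0.31 (SE; 95% interval −0.60 to 0.84). Epha2, the receptor of ephrin-A1, had 685, 803 and 714 in HFD libraries, against 411, 1453 and 507 in ND libraries, with the outer values both in ND. Epha4, which binds ephrins of both classes, had 1308, 1644 and 980.0 in HFD libraries, against 1789, 744 and 1500.3 in ND libraries. Their log2 fold changes were 0.12 ± 0.52 and 0.03 ± 0.42 (SE), and without ND 3 they were 0.68 and −0.35. Of the 11 tested Eph receptors, 5 had a positive and 6 a negative log2 fold change, and for 0 of them did the diets not overlap.

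Epha1, a receptor best known from epithelia, and Efna5, an ephrin-A ligand, stood in the same order over the libraries. Epha1 had 0.971, 151 and 74.9 normalized counts in HFD libraries, against 29.5, 195 and 48.7 in ND libraries. An antisense gene, Zyx, covers 6.0% of its exonic bases, and reads of the 2 genes cannot be told apart if counting ignored strand. Efna5 had 10.7, 184 and 73.4 in HFD libraries, against 15.4, 332 and 53.5 in ND libraries. Both were highest in ND 3, where the epithelial markers were highest, next in HFD 4 and lowest in HFD 2. The epithelial marker sum of HFD 4, 6274, lay below those of HFD 5, 18668, and ND 4, 7803, where both genes were lower. The part of epithelial RNA was not tested. The pair was singled out after its values were seen.

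Robo4, the Robo of endothelial cells, had 1699, 1525 and 921 normalized counts in HFD libraries, against 1274, 2124 and 1734 in ND libraries. The diets overlapped, at a log2 fold change of −0.33 ± 0.36 (SE; 95% interval −1.17 to 0.52). Robo3, best known from commissural neurons, had 54, 89 and 1 reads in HFD libraries, against 2, 1 and 1 in ND libraries. A fold change of Robo3 depends on the pseudocount and is not given, and more than 3 reads were found only in HFD 2 and HFD 4. The Slit ligands were low. Slit2 had 25.2, 17.7 and 138 normalized counts in HFD libraries, against 16.5, 19.2 and 21.4 in ND libraries, with HFD 5 apart from the other 5 libraries. Slit3 had 76.7, 3.22 and 98.6 in HFD libraries, against 16.5, 136 and 3.56 in ND libraries, with high and low libraries in both diets.

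Ntn4, a netrin of basement membranes that binds laminin, lay apart between the diets with little spread within HFD. The protein-coding gene spans chr10:93640681-93747207 on the plus strand of GRCm38 in GENCODE M21, and no other gene overlaps its exons. It had 237, 265 and 282 normalized counts in HFD libraries, against 575, 613 and 430.0 in ND libraries. The averages were 261 ± 22.6 in HFD and 539 ± 96.4 in ND (SD, n = 3 each), with every HFD library below every ND library under all 3 scalings. The log2 fold change was −1.03 ± 0.39 (SE; 95% interval −1.95 to −0.11), with a limma p of 0.0325 before and 0.581 after adjustment. It stayed between −1.19 and −0.93 when any 1 library was left out and was −0.93 without ND 3, and the limma p then exceeded 0.05 in all cases but that without ND 4. Ntn1, the netrin that binds DCC and Unc5 receptors, had 749.6, 983 and 1231 in HFD libraries, against 955, 1331 and 987 in ND libraries, which overlapped at a log2 fold change of −0.16 ± 0.34 (SE). Ntn4 thus held 34.5%, 31.1% and 27.7% of the netrin level per kb in HFD libraries, against 50.2%, 43.5% and 42.2% in ND libraries.

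**Figure D3:**
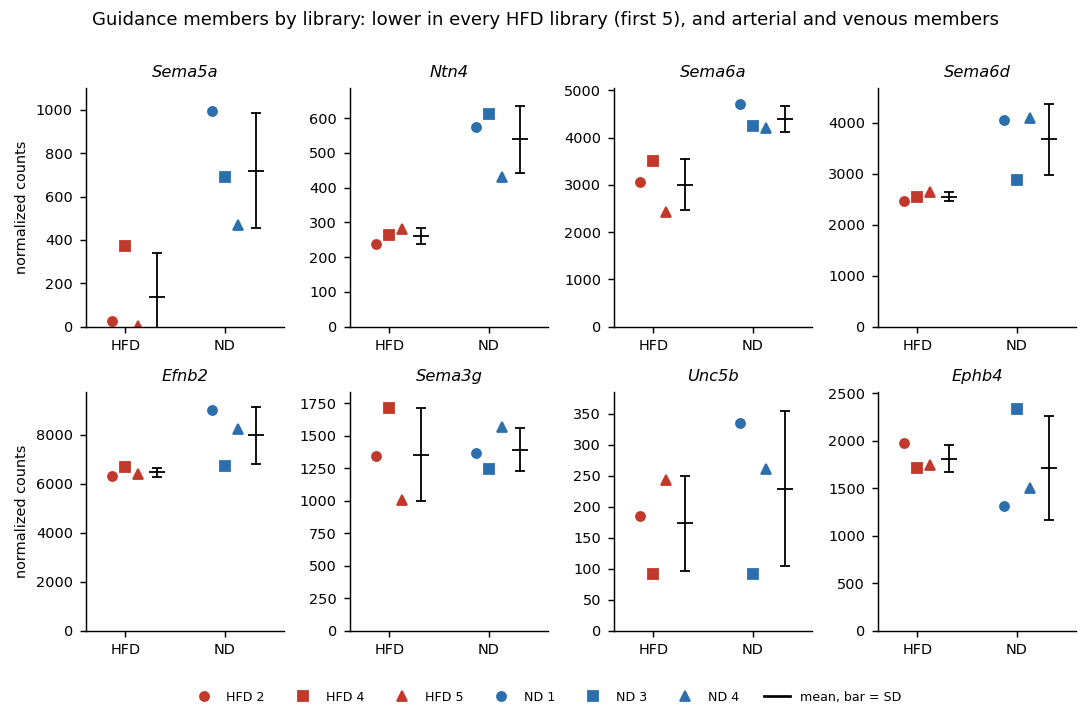
Normalized counts (y axis, from 0) in each library, HFD left of ND, for the 5 members lower in every HFD library and for the other members known from arteries or veins, with 1 point per library, the mean as a tick and the SD as a bar. Ntn4 lies at 237 to 282 in HFD and 430.0 to 613 in ND, and the lower end of the Sema5a bar in HFD is cut at 0.

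Unc5b, the endothelial netrin receptor, had 185, 91.0 and 243 normalized counts in HFD libraries, against 335, 91.9 and 261 in ND libraries. The diets overlapped, at a log2 fold change of −0.32 ± 0.69 (SE; 95% interval −1.96 to 1.31). Unc5a had 0, 64.4 and 0.720 in HFD libraries, against 0, 11.8 and 23.8 in ND libraries. A count of 0 allows up to 2.91 normalized counts in HFD 2 and 3.54 in ND 1, limits that cover counting error only, because reads amplified by PCR without molecular identifiers are not independent molecules. Of the genes matched by name only, Unc5cl had 0.971, 129.7 and 172 normalized counts in HFD libraries, against 176, 2.14 and 1.19 in ND libraries, so that it was high in HFD 4, HFD 5 and ND 1 and near 0 in the others. Plxna4os1 ranged from 188 to 848 normalized counts in HFD libraries and from 81.5 to 355 in ND libraries.

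Arterial and venous members were then set side by side. The arterial members Efnb2, Sema3g and Unc5b had log2 fold changes of −0.29, −0.07 and −0.32, and the venous member Ephb4 one of 0.12. Only Efnb2 had diets that did not overlap, and no interval of the 4 excluded 0. Within a library Efnb2 exceeded Ephb4 by a ratio of 3.20, 3.90 and 3.65 in HFD libraries, against 6.87, 2.87 and 5.46 in ND libraries. The ratio averaged 3.58 ± 0.35 in HFD and 5.07 ± 2.03 in ND (SD, n = 3 each), with ND values on both sides of the HFD values. On the log2 scale the mean ratio was lower in HFD by a difference of −0.41, which was −0.15 without ND 1 and −0.78 without ND 3.

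Other arterial and venous genes lay on both sides. Of 9 tested arterial genes outside the guidance families, 6 had a positive and 3 a negative log2 fold change, with a median of 0.45. Dll4, a Notch ligand of arterial cells, had 665, 875 and 774 normalized counts in HFD libraries, against 2022, 1782 and 1518 in ND libraries, a log2 fold change of −1.20 ± 0.29 (SE) at an unadjusted limma p of 0.00443. Gja4, the connexin 37 gene, had 4595, 3845 and 5335 in HFD libraries, against 2269, 2093 and 2973 in ND libraries, a log2 fold change of 0.91 ± 0.25 (SE) at an unadjusted limma p of 0.00796. These 2 arterial genes thus lay on opposite sides, with no overlap for either. Of 7 venous genes 5 had a positive and 2 a negative log2 fold change, and Nr2f2, which encodes the venous regulator COUP-TFII, had 582, 565 and 209.5 in HFD libraries, against 1441, 1208 and 707 in ND libraries. Its log2 fold change was −1.38 ± 0.53 (SE), at an unadjusted limma p of 0.0339. None of the 3 passed limma's adjustment, with adjusted p of 0.472 for Dll4, 0.494 for Gja4 and 0.581 for Nr2f2. By DESeq2 Dll4 passed, at an adjusted p of 0.00736, and Gja4 and Nr2f2 did not, at 0.0941 and 0.196, and by edgeR the adjusted p was 0.507, 0.508 and 0.513 for Dll4, Gja4 and Nr2f2. Without ND 3 their log2 fold changes were −1.19 for Dll4, 0.81 for Gja4 and −1.30 for Nr2f2. Aplnr, another venous gene, had 1540, 1497 and 2576 in HFD libraries, against 1031, 1083 and 1208 in ND libraries. Under all 3 scalings Aplnr was higher in every HFD library. Its unadjusted p was 0.0602 by limma, 0.0496 by edgeR and 0.0455 by DESeq2, and 0.639, 0.534 and 0.415 after adjustment. The arterial gene Cxcl12 was also higher in every HFD library, but its diets overlapped under equal totals.

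**Figure D4:**
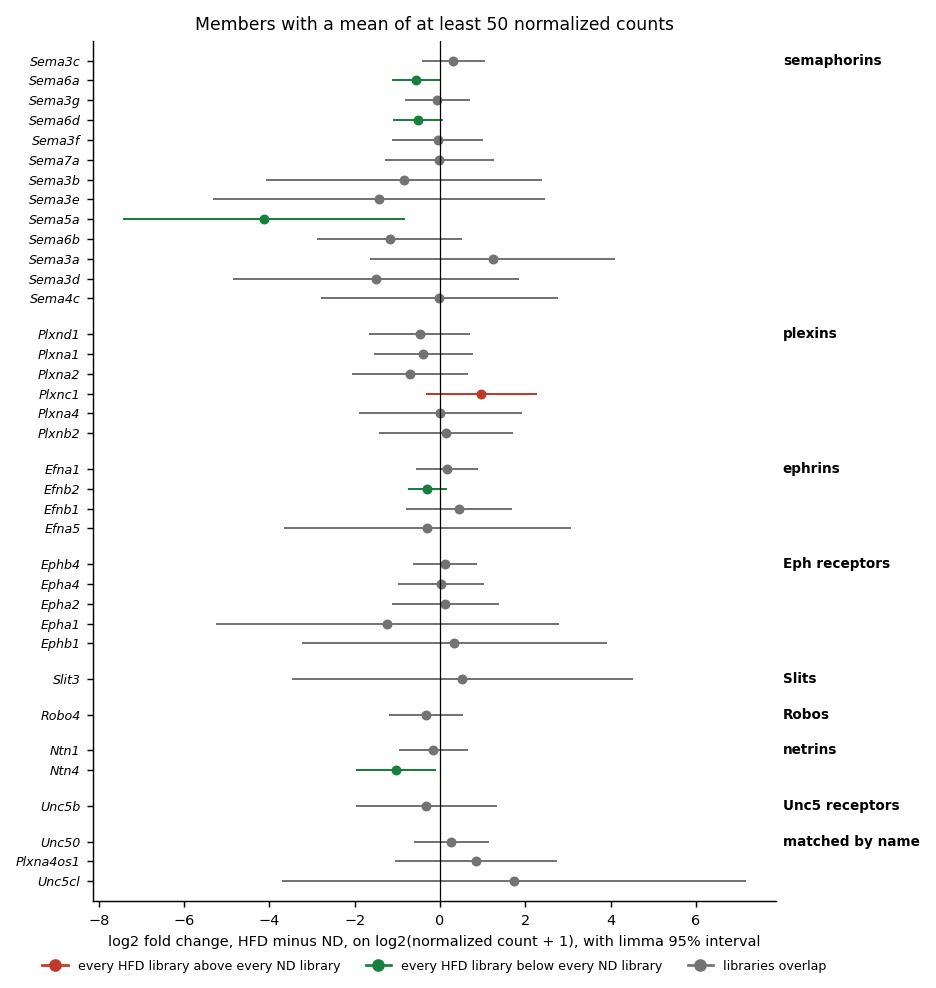
Log2 fold change, HFD minus ND, with its limma 95% interval (x axis), for the 36 members averaging 50 normalized counts or more, by family. Green marks the 5 members lower in every HFD library, red the 1 higher in every HFD library, and only the intervals of Sema5a, Sema6a and Ntn4 exclude 0.

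Of the other genes of the guidance pathways, neuropilins, adaptors and effectors among them, 49 of 51 listed were in the table and 40 were tested. Of these, 20 had a positive and 20 a negative log2 fold change, with a median of 0.00, and at an unadjusted limma p under 0.05 there were 1 higher and 1 lower, where 5.56% and 2.36% of all genes were. Nrp2, the neuropilin of Sema3f and Sema3g and a receptor of lymphatic and venous endothelium, had 64.1, 184 and 264 normalized counts in HFD libraries, against 452, 455 and 454 in ND libraries. It was lower in every HFD library, at a log2 fold change of −1.63 ± 0.61 (SE) and an unadjusted limma p of 0.0313 (adjusted 0.574), and of −1.62 without ND 3. The unadjusted p of Nrp2 was 0.0519 by edgeR and 0.0168 by DESeq2, and by limma it exceeded 0.05 without HFD 2 or any 1 ND library, at 0.0658 to 0.0716. Mical1, an enzyme that takes actin filaments apart downstream of plexins, had 84.5, 217 and 52.6 in HFD libraries, against 1.18, 0 and 44.0 in ND libraries, at an unadjusted limma p of 0.0219 (adjusted 0.564). The unadjusted p of Mical1 was 0.152 by edgeR and 0.0817 by DESeq2, and by limma 0.0501 without HFD 2, 0.0767 without HFD 4, 0.0649 without ND 1 and 0.0631 without ND 3, and under equal totals its diets overlapped. Nrp1, the neuropilin of arterial endothelium, had 9859, 11791 and 12744 in HFD libraries, against 6621, 11572 and 9792 in ND libraries, and overlapped between the diets.

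Markers of other cell types were read beside these results. The 7 lymphatic markers summed to 4853 to 15891 normalized counts in HFD libraries and 14841 to 33512 in ND libraries, and all 6 tested had a negative log2 fold change. Pdpn had 48.6, 160.3 and 138 normalized counts in HFD libraries, against 629, 1475 and 1187 in ND libraries, and Lyve1 was also lower in each HFD library. Their log2 fold changes were −3.32 and −0.63, and −3.06 and −0.59 without ND 3. Pdpn passed an adjusted p of 0.05 by DESeq2, at 9e-06, but not by edgeR, at 0.49. The mural marker Cnn1 and the endothelial marker Egfl7 also passed by DESeq2, at 0.00485 and 0.0367, but not by edgeR, at 0.508 each. Cnn1 had 4.86, 1.61 and 2.16 normalized counts in HFD libraries, against 279, 205 and 3.56 in ND libraries. The 11 mural markers summed to 1135 to 2053 in HFD libraries and 1731 to 6432 in ND libraries, and Acta2 was at 0 in HFD 2 and ND 4. The 8 fibroblast markers summed to 1543 to 5054 in HFD libraries and 999 to 7327 in ND libraries. Of Schwann cell and mesothelial markers, 2 and 3 were in the table, with sums of 9.66 to 103 and 6.48 to 13.6 in HFD libraries and 17.1 to 165 and 9.50 to 15.4 in ND libraries. The lymphatic and mural sums thus tended to be lower in HFD, though they overlapped between the diets. Sema5a, Sema6a, Sema6d, Ntn4, Efnb2 and Nrp2 were lower as well. Of the tested markers, 9 of 11 epithelial, 8 of 11 mural and 5 of 8 fibroblast ones had a negative log2 fold change. Their medians were −1.24, −0.57 and −0.40. Ccl21a alone gave 15178 of the lymphatic 24490 in ND 1 and 22638 of 33512 in ND 4. The lymphatic sums overlapped only between HFD 5 and ND 3, where Ccl21a gave 9634 of 15891 and 4358 of 14841. Within HFD the lymphatic sum was highest in HFD 5, where most of it was Ccl21a. In that library Sema5a and Sema6a were lowest within HFD and Sema6d, Ntn4 and Nrp2 highest. Of the other lymphatic markers, Pdpn, Lyve1, Flt4 and Reln were highest within HFD in HFD 4, and Prox1 and Mmrn1 in HFD 2. The part of these cell types in the differences was not tested.

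**Figure D5:**
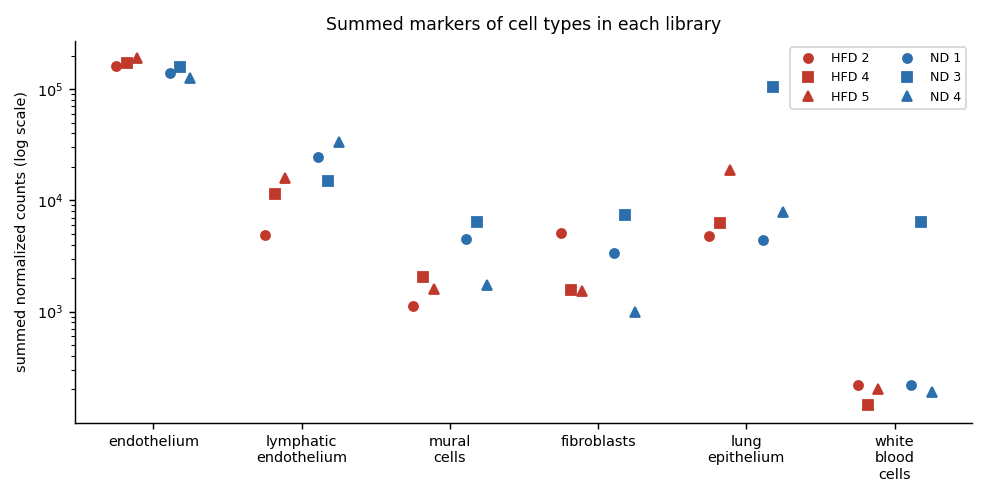
Summed normalized counts (y axis, log scale) of the markers of each cell type in each library, HFD left of ND, with 1 point per library. Lymphatic markers lie at 4853 to 15891 in HFD and 14841 to 33512 in ND. ND 3 stands apart at 103698 for lung epithelium and at 6445, nearly all Lyz2, for white blood cells.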

How the data were processed

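RNA of 3 HFD and 3 ND libraries was primed with oligo(dT), amplified by PCR and sequenced without mention of molecular identifiers, per the labels' protocols. The deposited table gives a normalized signal per gene, the read count that the authors scaled by 1 size factor for each library. The submitters' processing notes, per the labels, name GRCm38 as the build and list HTSeq 0.6.1, DESeq2, TopHat2 2.0.10, SAMtools 0.1.19, Bowtie 1.0.0, cutadapt and FastQC 0.11.7 with no roles, and whether counting used strand is not given in the sources used here. Each of the 6 columns matched 1 sample by its letter and number, and 0 columns had no sample. Dividing a column by what 1 read is worth there, 0.720 to 1.19, made 100% of its values whole within 1e-06, which gave reads per gene and depth.

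The 15655 genes averaging 10 normalized counts or more were tested as log2(normalized count + 1) by limma 3.58.1 with an intensity trend in R 4.3.3. The tests were two-sided, without covariates, with Benjamini-Hochberg adjustment at 0.05 over all 15655 genes. edgeR 4.0.16 and DESeq2 1.42.0 were run on the reads. For low members limma's log2 fold change could be larger than edgeR's, as for Sema3a at 1.23 against 0.34, or smaller, as for Slit2 at 1.03 against 1.56. The procedure was checked on simulated data. Positions and exonic lengths are from GENCODE M21, in which all 65 members had a single match by symbol, and promoter windows are from RefSeq.

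The members and all gene lists were chosen with earlier results of these data known. Values in every library are printed for Efnb2, Sema3g, Unc5b and Ephb4, for 8 members known from endothelium, for the 2 members of each family with the highest level per kb, and for members averaging 50 or more normalized counts and either no overlap between the diets or an unadjusted p under 0.05, which made 21 genes. Other genes given by library were chosen after their values were seen. Alternatives were pseudocounts of 0.5 and 5, no filter or a minimum mean of 50, TMM factors, equal totals, edgeR, DESeq2 and leaving out each library.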

Additional observations from a re-analysis of the deposited data

How the results depend on the processing

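The count of members past an adjusted p of 0.05 was 0 under all alternatives run. Of all genes, 0 passed under each alternative but DESeq2, where 272 did, or 1.95%. The count at an unadjusted p under 0.05, 3 by limma, was 4 of 65 with no filter, 4 by edgeR, 1 of 36 at a minimum mean of 50, 5 under equal totals, 5 by DESeq2 and 0 to 2 when 1 library was left out. In the same settings 7.25%, 9.34%, 8.96%, 7.95%, 10.4% and 5.34% to 9.27% of all genes passed, against 7.92% by limma as reported. The count of members whose diets did not overlap, 7, was 8 to 14 when 1 library was left out, where 21% to 27.4% of all genes did not overlap, against 14.1% with all libraries. The median log2 fold change of the members was −0.24 to −0.06 when 1 library was left out, and the difference in the log2 ratio of Efnb2 to Ephb4 was −0.78 to −0.15.

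Of the 21 genes printed by library, 11 kept the sign of their log2 fold change under every alternative, and 264 of 290 alternative values kept sign. The others turned sign. The side of the adjusted threshold could change only by DESeq2, as 0 genes passed it in the other settings. When 1 library was left out, Efna1 ranged from −0.0624 to 0.35, Epha2 from −0.23 to 0.68, Epha4 from −0.35 to 0.28, Ephb4 from −0.0516 to 0.37, Ntn1 from −0.33 to 0.0281, Sema3c from −0.0377 to 0.54, Sema3g from −0.25 to 0.13, Slit3 from −0.62 to 1.99, Unc5a from −1.88 to 0.64 and Unc5b from −0.88 to 0.0820. Epha2 was −0.18 by edgeR and −0.19 by DESeq2, Epha4 −0.0909 under equal totals, −0.0671 by edgeR and −0.0934 by DESeq2, and Unc5a 0.84 by edgeR and 0.82 by DESeq2. The cause was not tested. Leaving out the 4 genes matched by name only, an alternative chosen after seeing the data, gave 49 tested members with a median of −0.16. Depth limits what can be said of the members under 10 normalized counts, where values rest on few reads. No paired analysis was possible because the diets share only the mouse number 4, which names different mice.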

Other observations

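Of 40 tested genes on the list of other guidance pathway genes, 4 were higher and 3 lower in every HFD library, where 8.12% and 5.93% of all genes were, so the counts do not set the list apart. The 4 described here are named after their values were seen. Rras, a small GTPase that plexins act on, had 1076, 1086 and 943 normalized counts in HFD libraries, against 1744, 1532 and 1445 in ND libraries, a log2 fold change of −0.60 ± 0.27 (SE). Trio, an exchange factor downstream of netrin receptors, had 437, 450.2 and 147 in HFD libraries, against 508, 771 and 525 in ND libraries. Nck1, an adaptor of activated receptors, had 7252, 6334 and 5931 in HFD libraries, against 5348, 4749 and 5558 in ND libraries. Itgb1, the integrin beta 1 chain that also binds Sema7a, had 11777, 12098 and 15137 in HFD libraries, against 11704, 7352 and 9984 in ND libraries. Nck1 and Itgb1 were higher in every HFD library, each by a narrow gap, and under equal totals the diets overlapped for Nck1 and Trio. The log2 fold changes of Trio, Nck1 and Itgb1 were −0.94, 0.32 and 0.44, and without ND 3 those of Rras, Trio, Nck1 and Itgb1 were −0.62, −0.75, 0.25 and 0.26. None of the 4 passed adjustment by limma, with adjusted p between 0.639 and 0.708.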
